A study of Mus musculus with 24 samples.

Results

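The messenger RNAs of 4 genes of the heat shock factor system, Hsf1, Hsf2, Hsf4 and Hsbp1, were followed by RNA sequencing in quadriceps femoris muscle of 24 mice. The 4 were picked by their symbols (Entrez Gene identifiers 15499, 15500, 26386 and 68196) out of 18669 genes in the count table, and all 4 passed the filter on low counts that left 13754 genes for testing. The mice were wild type, R6/2 or Hsf1-/-, all on a CBA x C57BL/6 F1 background. R6/2 mice are a transgenic model of Huntington's disease that expresses an expanded CAG repeat within the first exon of human huntingtin, and Hsf1-/- mice are homozygous knockouts. Each genotype was studied in 4 treatments with 2 mice each, which gives 12 groups. In the HS experiment, anaesthetised mice were kept at a body temperature of 41.5 °C for 15 minutes (HS) or at 36.9 °C for 21 minutes (control). In the HSP990 experiment, mice were given 12 mg/kg of the HSP90 inhibitor HSP990 or its saline vehicle by mouth. Muscle was taken 4 hours after treatment. Wild type and R6/2 mice were 12 weeks old, whereas the Hsf1-/- mice were 10 weeks old in the HS experiment and 8 weeks old in the HSP990 experiment, so the age and the genotype of the Hsf1-/- mice cannot be told apart. The questions were whether the other factors were higher where Hsf1 was lost, and whether any factor was lower in R6/2 muscle.

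Heat shock factors are transcription factors that bind heat shock elements, repeats of the unit nGAAn in alternating orientation, in front of chaperone genes. HSF1 is the factor that drives the heat shock response. It is kept inactive as a monomer in complexes with HSP90 and other chaperones, and on stress it is released, forms trimers, is phosphorylated and binds DNA, so its activity is set mainly on the protein that is already present. HSF2 has roles in development, is turned over by the ubiquitin system and can form mixed trimers with HSF1. HSF4 is best known for its role in the lens, and HSBP1 is a small coiled-coil protein that binds the trimer of HSF1 and dampens its activity. RNA counts report on none of these protein states.

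The libraries held 22450177 to 46599238 counts. Levels are given in CPM (counts over the library total, scaled by TMM), a scaling which assumes that most genes do not differ between libraries. Differences were tested with edgeR's quasi-likelihood test in a fit over all 24 libraries, and a gene was called at a Benjamini-Hochberg adjusted p under 0.05 over the 13754 genes. The p-values measure the spread between single mice of a group. Counts of the 4 members ran from 189 (Hsf4) to 7480 (Hsbp1) in a library, so depth did not limit their detection. The scaling mattered for R6/2. A single set of 20 genes was used, those with the highest mean CPM over all 24 libraries. It took 13.9 to 21.9% of an R6/2 library and 32.5 to 39.8% of any other library. The summed CPM of 7 muscle fibre markers (Acta1, Ckm, Myh1, Myh2, Myh4, Ttn and Des) was 41790 to 84020 in R6/2, 182200 to 227300 in wild type and 179200 to 239900 in Hsf1-/- mice. With library size alone as the scale, the median of all genes in R6/2 against wild type moved from 0.03 to 0.61 on the log2 scale. Summed counts of 4 Y-linked genes were 0 to 4 in the wild type and R6/2 mice of the HS experiment and at least 3916 in every other library, so in the HS experiment Hsf1-/- mice differed from wild type in this respect too.

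Hsf1 was the highest of the 3 factor genes and the member with the largest difference between genotypes. The gene lies on the plus strand of chromosome 15 (mm9, chr15:76307865-76331402), 165 bases from the divergent gene Bop1. In wild type muscle, Hsf1 was at 60.8 and 63.9 CPM in the control mice, 64.9 and 68.5 CPM after HS, 64.4 and 65.3 CPM with vehicle, and 52.9 and 56.6 CPM after HSP990. In Hsf1-/- muscle it was at 27.1 and 23.1 CPM in control mice, 27.6 and 29.0 CPM after HS, 28.7 and 27.5 CPM with vehicle, and 21.1 and 27.6 CPM after HSP990. All 8 Hsf1-/- mice were therefore below all 8 wild type mice, but none was near 0: the lowest count in any library was 488.

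Averaged over the 4 treatments, Hsf1 was 1.23 lower on the log2 scale in Hsf1-/- than in wild type muscle (log2 difference −1.23, SE 0.06, adjusted p = 1.02e-09, edgeR), which left 42.5% of the wild type level (95% interval 38.7 to 46.7%). The remainder was alike in both experiments, with log2 differences of −1.28 (adjusted p = 2.53e-07) in the HS experiment (9.38% of all genes called) and −1.19 (adjusted p = 3.58e-07) in the HSP990 experiment (2.03% called). The deleted part of Hsf1 is not given in the sources used here, and the counts are sums over the whole gene, so they do not say which part of the transcript was measured. No other place in the mm9 genome matched the Hsf1 transcripts over 50% of their length at a divergence of 0.02 or less. The transcripts of Hsf2, Hsf4 and Hsbp1 had no such second match either. Among the neighbours, Bop1, which acts in ribosome assembly, was at 33.8 ± 3.58 CPM (SD, n = 8) in Hsf1-/- and 37.8 ± 4.91 CPM in wild type mice (log2 difference −0.16, adjusted p = 0.252). Dgat1, an enzyme of triglyceride synthesis on the other side of Hsf1, was at 18.6 ± 12.9 and 16.3 ± 5.04 CPM (log2 difference 0.14, adjusted p = 0.768).

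In R6/2 muscle, Hsf1 was lower than in wild type by a smaller step. Its levels were 50.2 and 47.3 CPM in control mice, 53.7 and 47.2 CPM after HS, 51.4 and 48.2 CPM with vehicle, and 50.6 and 45.3 CPM after HSP990. The 8 R6/2 values overlapped the 8 wild type values only through the highest R6/2 mouse (53.7 CPM, HS) and the lowest wild type mouse (52.9 CPM, HSP990). Relative to the bulk of genes, Hsf1 fell by 0.33 (log2 difference −0.33, SE 0.06, adjusted p = 0.00044), to 79.4% of wild type (95% interval 72.4 to 87.1%), but with library size alone as the scale it was 0.25 higher in R6/2 (adjusted p = 0.00203) while the median of all genes was 0.61 higher. The TMM-scaled log2 difference was −0.38 (adjusted p = 0.00487) in the HS experiment (25.4% of all genes called) and −0.29 (adjusted p = 0.024) in the HSP990 experiment (27.2% called), without overlap in either. Of the tested genes, 21.4% had a lower log2 difference than Hsf1 in this comparison. In bulk muscle, fewer cells of a type and less RNA per cell cannot be told apart, and the part of the lower fibre marker level of R6/2 libraries in this difference was not tested.

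**Figure D1:**
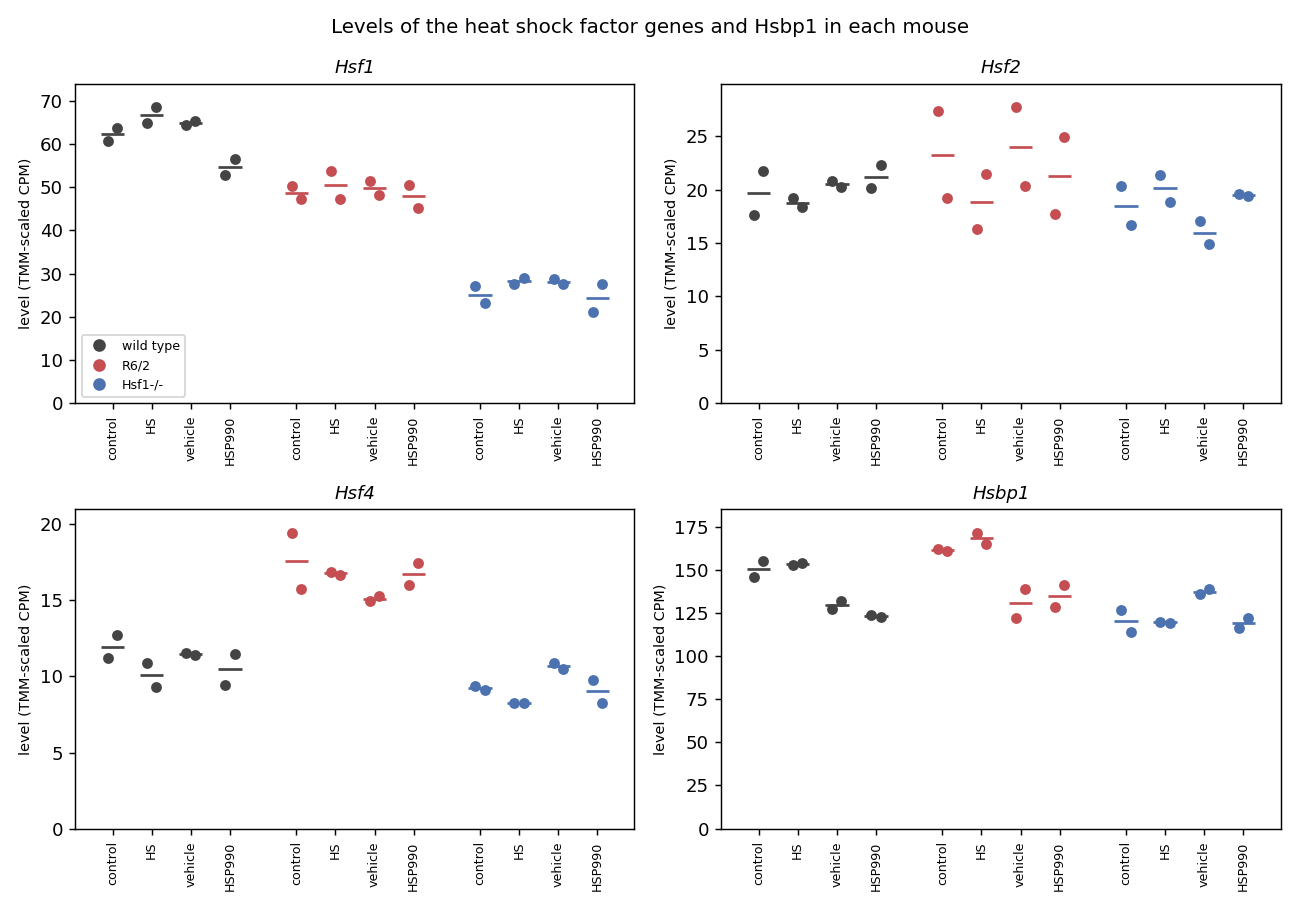
Each panel plots the TMM-scaled CPM of a member (y axis, from 0) in the 12 groups (x axis), with a point per mouse and a bar at the mean of 2 mice. Hsf1 steps down from wild type (black, 52.9 to 68.5 CPM) over R6/2 (red, 45.3 to 53.7 CPM) to Hsf1-/- (blue, 21.1 to 29.0 CPM), and Hsf4 stands higher in R6/2; on library size alone, the step of Hsf1 in R6/2 has the opposite sign (log2 difference 0.25).

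Hsf2 did not take a higher level where Hsf1 was lost. The gene lies on chromosome 10 (mm9, chr10:57206191-57232939, plus strand), with a divergent long noncoding RNA, 4930467K11Rik, 31 bases away. In wild type muscle its levels were 17.7 and 21.8 CPM (control), 19.2 and 18.3 CPM (HS), 20.9 and 20.3 CPM (vehicle), and 20.2 and 22.3 CPM (HSP990). In Hsf1-/- muscle they were 20.3 and 16.7 CPM, 21.4 and 18.9 CPM, 17.1 and 14.9 CPM, and 19.6 and 19.4 CPM in the same order. The 2 sets of 8 mice overlapped, and the log2 difference was −0.12 (SE 0.10, adjusted p = 0.533). The 95% interval, −0.34 to 0.10, ends at 107% of the wild type level. By experiment, the log2 difference was 0.00 (0.004, adjusted p = 0.996) in the HS experiment and −0.24 (adjusted p = 0.475) in the HSP990 experiment.

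In R6/2 muscle Hsf2 varied between mice, at 27.4 and 19.2 CPM (control), 16.3 and 21.4 CPM (HS), 27.7 and 20.4 CPM (vehicle), and 17.7 and 25.0 CPM (HSP990). The 2 mice of each R6/2 group stood 5.09 to 8.18 CPM apart, against at most 4.12 CPM in wild type. A wider spread was not particular to Hsf2. The largest gap was also wider in R6/2 than in wild type for Hsf1 (6.48 against 3.66 CPM), Hsf4 (3.70 against 2.06 CPM) and Hsbp1 (16.7 against 9.41 CPM). The log2 difference from wild type was 0.12 (SE 0.10, 95% interval −0.10 to 0.34, adjusted p = 0.376), and on library size alone it was 0.71 (adjusted p = 1.52e-05), close to the 0.61 of the median gene.

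Hsf4 was the member that was higher in R6/2 muscle. It lies on chromosome 8 (mm9, chr8:107793701-107799745, plus strand), between Fbxl8, 474 bases before it, and Nol3, 601 bases after it, on the same strand. In wild type muscle its levels were 11.2 and 12.7 CPM (control), 10.9 and 9.28 CPM (HS), 11.5 and 11.4 CPM (vehicle), and 9.43 and 11.5 CPM (HSP990). In R6/2 muscle they were 19.4 and 15.7 CPM, 16.9 and 16.7 CPM, 15.0 and 15.3 CPM, and 16.0 and 17.5 CPM in the same order. Every R6/2 mouse was thus above every wild type mouse, in a comparison where 40.9% of all genes were called. The share of all genes that separate these mice fully was not worked out. The log2 difference of Hsf4 was 0.59 (SE 0.07, adjusted p = 7.48e-06), or 151% of wild type (95% interval 135 to 168%), and it was higher than that of 87.6% of the tested genes. The direction was the same on library size alone (1.18, adjusted p = 2.31e-09) and within each experiment (0.64, adjusted p = 0.000288, with HS; 0.54, adjusted p = 0.000977, with HSP990). Markers of other cell types also differed in R6/2. The satellite cell markers Pax7 (0.69, adjusted p = 0.00146) and Myf5 (0.62, adjusted p = 0.00501) were higher, with a summed level of 7.21 to 11.6 CPM in R6/2 and 4.18 to 7.53 CPM in wild type. Of 5 adipocyte markers 4 were lower (sum 206.6 to 384.5 CPM, against 270.1 to 1359 CPM), as was the erythroid marker Alas2 (−1.13, adjusted p = 0.0234). No fibre, satellite cell or adipocyte marker was at 0, and the part of these markers in the Hsf4 difference was not tested.

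In Hsf1-/- muscle Hsf4 was not higher. Its levels were 9.36 and 9.12 CPM (control), 8.29 and 8.22 CPM (HS), 10.9 and 10.5 CPM (vehicle), and 9.76 and 8.28 CPM (HSP990), which overlapped the wild type values from below. The log2 difference was −0.24 (SE 0.07, 95% interval −0.40 to −0.09) at an adjusted p of 0.054, just outside the threshold, and with DESeq2 it was −0.24 at an adjusted p of 0.0443, so the call depends on the tool. Without wild type HSP990 replicate 1 it also passed with edgeR (−0.28, adjusted p = 0.0443). The whole interval lies below the wild type level, at 75.7 to 94.1% of it.

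Hsbp1 was the most abundant member, and in wild type and R6/2 mice, but not in Hsf1-/- mice, its levels in the 2 experiments did not overlap. It lies on chromosome 8 (mm9, chr8:121868438-121872827, plus strand). In wild type muscle its levels were 146 and 155 CPM (control), 153 and 154 CPM (HS), 128 and 132 CPM (vehicle), and 124 and 123 CPM (HSP990). In R6/2 muscle they were 162 and 161 CPM, 171 and 165 CPM, 122 and 139 CPM, and 128 and 141 CPM in the same order. In Hsf1-/- muscle they were 126 and 114 CPM, 120 and 119 CPM, 136 and 139 CPM, and 116 and 122 CPM. The wild type and R6/2 mice of the HS experiment, at 146 to 171 CPM, stood above all 16 other mice, at 114 to 141 CPM, and these are the same 8 libraries that lacked Y-linked counts. The share of all genes that separate these libraries, or the 2 experiments, in this way was not worked out.

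Over the 4 treatments Hsbp1 was 0.16 lower in Hsf1-/- than in wild type muscle (log2 difference −0.16, SE 0.05, adjusted p = 0.0396). The value came from the HS experiment, where it was −0.34 (adjusted p = 0.00435), the groups did not overlap and 9.38% of all genes were called. In the HSP990 experiment, in which all mice had Y-linked counts, it was 0.02 (adjusted p = 0.954). The difference between these values was −0.36 (95% interval −0.55 to −0.16, unadjusted p = 0.0012, adjusted p = 0.0706), which did not pass the threshold over all genes, of which 1.09% did. Leaving out each of the 16 mice in turn, the call over both experiments was lost in 14 cases (log2 difference −0.18 to −0.14), and held only without Hsf1-/- control replicate 1 or Hsf1-/- HSP990 replicate 2. Age, Y-linked counts and genotype of the Hsf1-/- mice cannot be told apart in the HS experiment. In R6/2 muscle the log2 difference was 0.09 (SE 0.05, 95% interval −0.00 to 0.19, adjusted p = 0.118), and on library size alone it was 0.68 (adjusted p = 7.96e-09).

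Of the members, 2 of 4 were called in Hsf1-/- against wild type (Hsf1 and Hsbp1, both lower). There, 7.61% of all tested genes were called and 4.37% were lower. Hsf1 is the gene knocked out in these mice, so its call follows from the design and is no result about the members. Hsbp1 was not called in the HSP990 experiment alone. In R6/2 against wild type, 2 of 4 were called (Hsf1 lower and Hsf4 higher), where 40.9% of all genes were. In R6/2 the share of members called was thus near the share of all genes. Between R6/2 and Hsf1-/- directly, where 45.7% of genes were called, Hsf1 (0.90, adjusted p = 1.95e-08), Hsf4 (0.84, adjusted p = 1.99e-07) and Hsbp1 (0.26, adjusted p = 0.000236) were higher in R6/2. Hsf2 was at 0.24 (adjusted p = 0.0677) in that comparison.

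**Figure D2:**
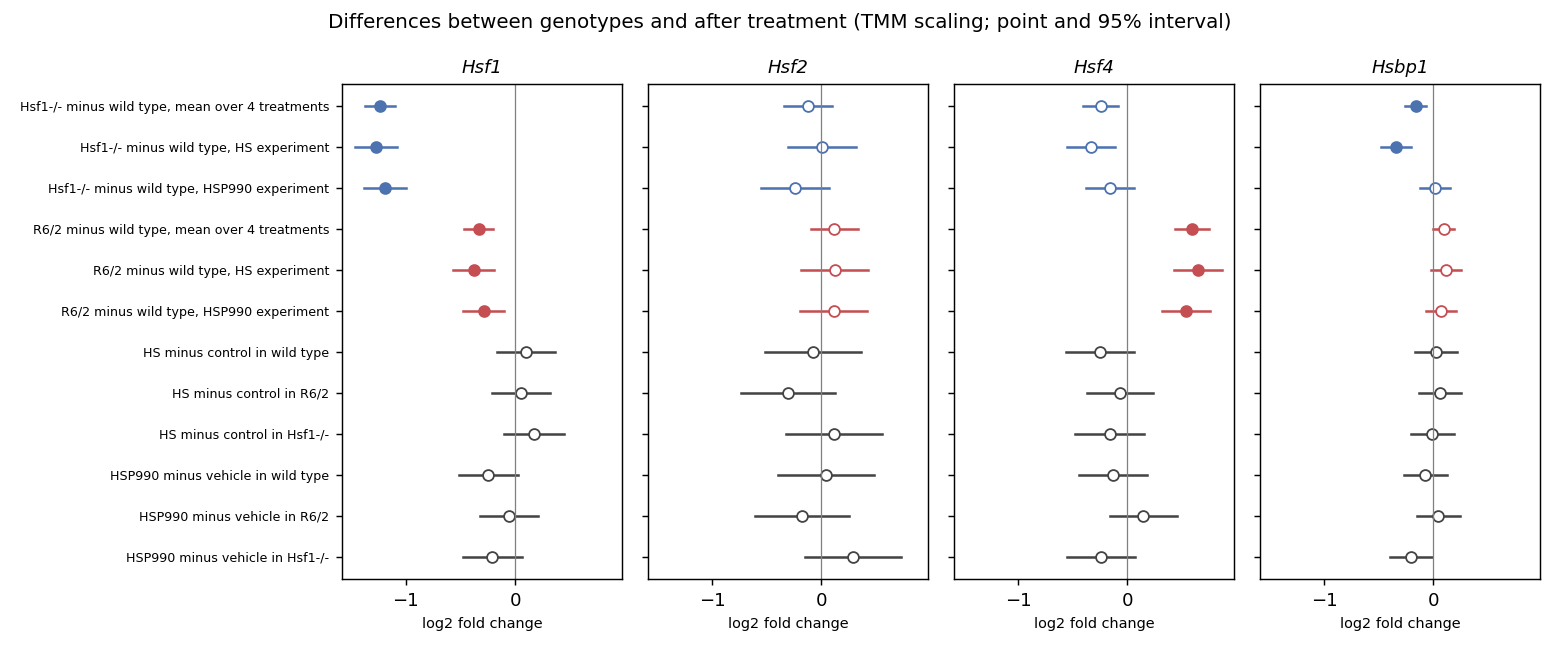
Each panel gives a member's log2 fold change (x axis, TMM scaling) for the comparisons on the y axis, with the 95% interval as a line; filled points had an adjusted p under 0.05. The filled points over the 4 treatments are Hsf1 in Hsf1-/- (−1.23) and R6/2 (−0.33, but 0.25 on library size alone), Hsf4 in R6/2 (0.59) and Hsbp1 in Hsf1-/- (−0.16); Hsf4 in Hsf1-/- (−0.24) and Hsbp1 after HSP990 in Hsf1-/- (−0.21) have intervals below 0 but are not filled, and no treatment point is.

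Other genes of the family gave almost no reads. Hsf5 had 47 counts in all 24 libraries together, Hsf3 had 19, and Hsfy2, a homologue named for the Y chromosome, was listed at 0. Sumo2, which cells use widely, was listed at 0 in every library too, so a 0 in this table does not bound a level. Of these, Hsf5 alone passed the filter, and it was called in neither genotype comparison. The highest count of Hsf5 in a library was 7.

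To compare genes with each other, CPM was divided by the summed exon length (2178 bases for Hsf1, 2667 for Hsf2, 1753 for Hsf4 and 1163 for Hsbp1). In wild type muscle the median level per kilobase was 119 CPM for Hsbp1, 29.4 for Hsf1, 7.58 for Hsf2 and 6.45 for Hsf4. Hsbp1 and Hsf1 kept clear of their neighbours in this order in each genotype, whereas Hsf2 (6.63 to 8.36) and Hsf4 (5.29 to 7.26) overlapped. In R6/2 muscle the last 2 changed places, with medians of 9.33 for Hsf4 (8.53 to 11.1) and 7.84 for Hsf2 (6.13 to 10.4), again with overlap. In Hsf1-/- muscle Hsf1, at 12.6 (9.68 to 13.3), still stood above Hsf2, at 7.18 (5.57 to 8.02), and Hsf4, at 5.27 (4.69 to 6.20).

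The sum of Hsf1, Hsf2 and Hsf4 per kilobase had a median of 43.4 CPM in wild type (37.2 to 44.8), 39.7 CPM in R6/2 (37.9 to 44.4) and 24.9 CPM in Hsf1-/- mice (22.1 to 25.8). Wild type and R6/2 overlapped, and Hsf1-/- stood apart. The share of Hsf1 in this sum, which does not depend on the scaling of the libraries, was 63.5 to 72.1% in wild type, 51.8 to 61.0% in R6/2 and 42.8 to 53.1% in Hsf1-/- mice. That of Hsf4 was 12.1 to 16.2% in wild type, 20.1 to 25.0% in R6/2 and 18.6 to 24.7% in Hsf1-/- mice. In Hsf1-/- mice the sum includes the knocked-out gene, and Hsf4 itself was not higher (log2 difference −0.24).

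Plain ratios of counts within a library do not depend on the scaling either. The ratio of Hsf4 to Hsf1 was 0.135 to 0.203 in the 8 wild type mice, 0.291 to 0.387 in the 8 R6/2 mice and 0.284 to 0.463 in the 8 Hsf1-/- mice. Both other genotypes were clear of wild type, but in Hsf1-/- mice the divisor of this ratio, and of Hsf2 to Hsf1, is the knocked-out gene. Neither Hsf4 (log2 difference −0.24) nor Hsf2 (−0.12) was itself higher in Hsf1-/- mice. The ratio of Hsf2 to Hsf1 was 0.268 to 0.394 in wild type, 0.304 to 0.551 in R6/2 and 0.541 to 0.932 in Hsf1-/- mice. The ratio of Hsf4 to Hsf2, which leaves Hsf1 out, had medians of 0.558 in wild type, 0.765 in R6/2 and 0.479 in Hsf1-/- mice, with overlap between all genotypes.

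**Figure D3:**
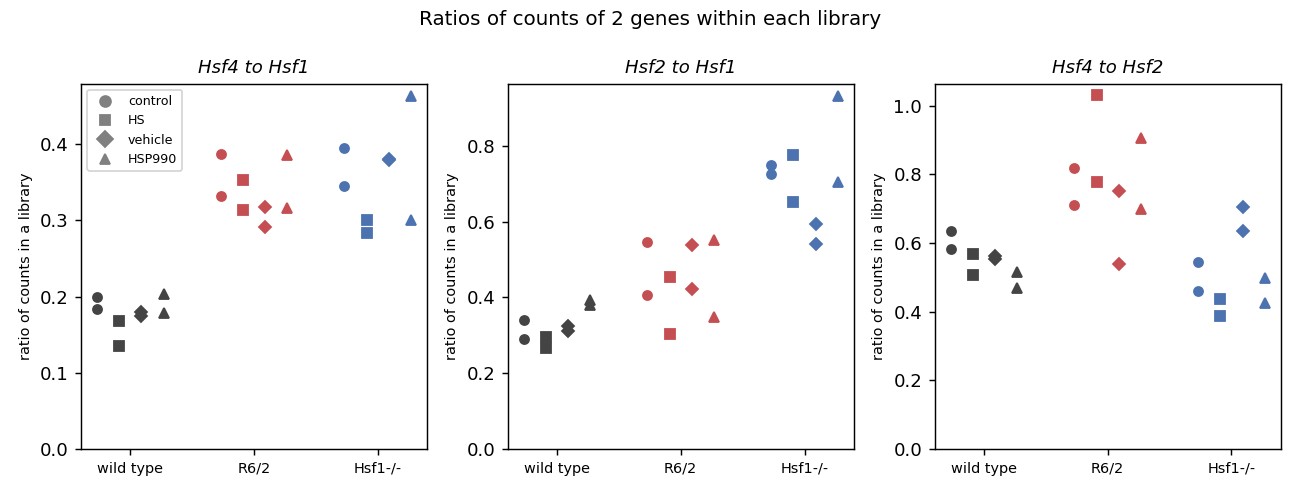
Ratio of the counts of 2 genes in the same library (y axis, from 0) in each mouse by genotype (x axis), with the treatment given by the marker; no scaling between libraries enters. Hsf4 to Hsf1 is 0.135 to 0.203 in wild type and above 0.28 in every R6/2 and Hsf1-/- mouse, while Hsf4 to Hsf2 overlaps between genotypes. In Hsf1-/- mice the divisor Hsf1 is the knocked-out gene, and Hsf4 itself was not higher there.

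No member was called after either treatment in any genotype, by edgeR or by DESeq2. The counts were 0 of 4 for HS in wild type (2.06% of all genes called), R6/2 (0.0436%) and Hsf1-/- mice (0.00727%), and for HSP990 in wild type (1.85%), R6/2 (1.43%) and Hsf1-/- mice (0.218%). At an unadjusted p under 0.05, the count was 1 for HSP990 in Hsf1-/- mice and 0 in the other comparisons. Of all 13754 genes, 1304 had such a p for HSP990 in Hsf1-/- mice. Over the 6 comparisons this number ran from 1117 (HS in R6/2) to 1816 (HSP990 in wild type), so 1 member is no result about the members. The member was Hsbp1 (log2 fold change −0.21, 95% interval −0.40 to −0.01, adjusted p = 0.499).

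The intervals show which sizes of response these data leave room for. The log2 fold change of Hsf1 after HS was 0.10 in wild type (95% interval −0.17 to 0.36), 0.05 in R6/2 (−0.21 to 0.32) and 0.17 in Hsf1-/- mice (−0.10 to 0.44). After HSP990 its values were −0.24 in wild type (−0.51 to 0.02, adjusted p = 0.429), −0.05 in R6/2 (−0.32 to 0.21) and −0.21 in Hsf1-/- mice (−0.48 to 0.06). In wild type, both HSP990 mice (52.9 and 56.6 CPM) were below both vehicle mice (64.4 and 65.3 CPM). With 2 mice against 2, even such a full separation gives a two-sided p of 0.333 at best in an exact test, so it shows no response by itself.

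For Hsf2, HS gave −0.07 in wild type (−0.51 to 0.36), −0.30 in R6/2 (−0.73 to 0.13) and 0.12 in Hsf1-/- mice (−0.32 to 0.56). HSP990 gave 0.05 in wild type (−0.39 to 0.48), −0.17 in R6/2 (−0.60 to 0.26) and 0.29 in Hsf1-/- mice (−0.15 to 0.73, adjusted p = 0.705). In Hsf1-/- mice both HSP990 values (19.6 and 19.4 CPM) were above both vehicle values (17.1 and 14.9 CPM), a separation of 2 against 2 with the same limit as for Hsf1. The upper end of the interval for HSP990 in Hsf1-/- mice is 166% of the vehicle level.

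For Hsf4, HS gave −0.25 in wild type (−0.56 to 0.07, adjusted p = 0.579), −0.07 in R6/2 (−0.37 to 0.24) and −0.16 in Hsf1-/- mice (−0.48 to 0.15). HSP990 gave −0.13 (−0.44 to 0.18), 0.15 (−0.16 to 0.45) and −0.24 (−0.55 to 0.07) in the same order. For Hsbp1, the intervals over the 6 comparisons ran from −0.40 to 0.25. The members' responses were also compared between genotypes, and 0 of 4 differed from wild type in the HS response of R6/2 (0.0727% of genes called) or Hsf1-/- mice (0.16%), or in the HSP990 response of R6/2 (0%) or Hsf1-/- mice (0.422%), by edgeR, by DESeq2 and at an unadjusted p under 0.05. At that unadjusted p, 511 to 981 of the 13754 genes differed in these 4 comparisons.

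The treatments did act in the same wild type and R6/2 libraries. Of 18 chaperone genes known as HSF1 targets, 14 rose after HS in wild type (median log2 fold change 1.54, against −0.01 over all genes), 3 in R6/2 (0.38) and 0 in Hsf1-/- mice (0.05). After HSP990, 16 rose in wild type (1.83), 15 in R6/2 (1.26) and 0 in Hsf1-/- mice (0.06). Of all 13754 genes, 219, 6 and 1 rose after HS in the same order, and 199, 65 and 23 after HSP990. With DESeq2, 17 rose after HS in wild type and 4 in R6/2, and 17 and 15 after HSP990. Over all genes, DESeq2 called 375 and 107 higher after HS, and 399 and 132 after HSP990. At an unadjusted p under 0.05, HS in R6/2 gave 10 of the 18, against 1117 of all 13754 genes. In Hsf1-/- mice the count was 0 with DESeq2 as well, and 1 of the 18 had an unadjusted p under 0.05 after either treatment. Of all 13754 genes, 1211 had such a p there after HS and 1304 after HSP990. The targets thus give no check that the treatments acted in Hsf1-/- mice. Hspa1a, an inducible HSP70, went from 7.23 ± 5.45 to 1012 ± 72.1 CPM (SD, n = 2) with HS in wild type (log2 fold change 7.11, adjusted p = 7.63e-06) and from 7.78 ± 5.48 to 138 ± 27.2 CPM in R6/2 (4.15, adjusted p = 0.00425). With HSP990 it went from 22.4 ± 8.79 to 2863 ± 123 CPM in wild type (adjusted p = 2.79e-06) and from 8.46 ± 4.38 to 649 ± 107 CPM in R6/2 (6.26, adjusted p = 2.24e-05). Hspa1a and Hspa1b are near-identical copies, so their reads may be split between them.

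**Figure D4:**
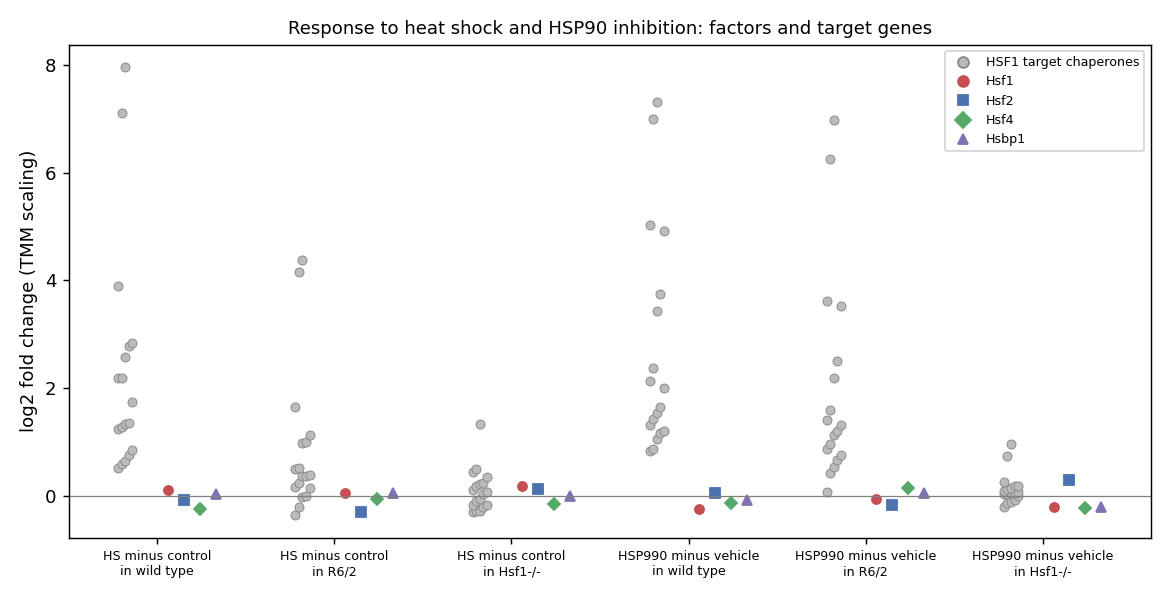
Log2 fold change after HS or HSP990 (y axis, TMM scaling) in the 3 genotypes (x axis), with the 18 HSF1 target chaperones as grey points and the members as coloured markers. The members lie between −0.30 and 0.29 in each comparison, while targets reach 7.97 with HS in wild type and 6.97 with HSP990 in R6/2.

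Promoter sequences from RefSeq are shown for 2 members and a responding target, to give the bases on which a heat shock element could be read. The 250 bases before the start of Hsf2 (GRCm38.p6, chr10:57486135-57486384, plus strand) and of Hsbp1 (chr8:119344288-119344537, plus strand) are set beside those of the induced target Hspa1a (chr17:34972157-34972406, minus strand); Hsf1 and Hsf4 were not matched in that table. They are on a later build than the counts. Capitals mark the core of 2 opposed heat shock units, GAANNTTC or TTCNNGAA, on either strand (each is its own reverse complement).
Hsf2: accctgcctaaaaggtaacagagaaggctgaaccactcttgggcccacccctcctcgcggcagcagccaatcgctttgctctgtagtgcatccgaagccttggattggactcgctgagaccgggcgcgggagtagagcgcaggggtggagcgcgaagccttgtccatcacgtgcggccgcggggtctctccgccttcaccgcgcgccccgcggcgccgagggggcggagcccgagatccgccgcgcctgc
Hsbp1: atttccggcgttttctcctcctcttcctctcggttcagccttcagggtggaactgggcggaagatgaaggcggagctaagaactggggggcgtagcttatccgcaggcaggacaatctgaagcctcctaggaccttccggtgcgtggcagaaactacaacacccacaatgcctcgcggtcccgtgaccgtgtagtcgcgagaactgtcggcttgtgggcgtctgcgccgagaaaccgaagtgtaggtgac
Hspa1a: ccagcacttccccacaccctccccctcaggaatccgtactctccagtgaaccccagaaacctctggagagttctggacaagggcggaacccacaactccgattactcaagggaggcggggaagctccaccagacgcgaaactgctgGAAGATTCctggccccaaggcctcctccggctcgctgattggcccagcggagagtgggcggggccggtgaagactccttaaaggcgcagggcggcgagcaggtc
Hspa1a has this core once, 104 bases before its start, and Hsf2 and Hsbp1 have it nowhere in these bases. Of 32851 mouse promoters of this length, 12.8% held it, so most promoters lack it. Dnajb1, which rose with HSP990 in wild type, also had no match in its window, and a missing match says nothing of binding by a factor.

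Of 12 listed chaperones and co-chaperones of HSF1, 9 were lower in Hsf1-/- muscle over the 4 treatments (median log2 difference −0.99, against 0.00 over all genes). In this comparison 7.61% of all genes were called and 4.37% were lower. Of the 12, 7 are themselves in the list of HSF1 targets. Hsp90aa1, the inducible HSP90, was at 8.86 ± 2.04 CPM in Hsf1-/- and 152 ± 182 CPM in wild type mice (SD, n = 8 over 4 treatments; log2 difference −2.67, adjusted p = 4.94e-10). Its constitutive partner Hsp90ab1 was at 1046 ± 103 and 2426 ± 952 CPM (−1.13, adjusted p = 9.51e-09). Of the 18 targets, 17 were lower. These means include the treated mice, in which wild type levels were induced. In the control and vehicle mice alone, 4 of the 12 (median −0.42) and 10 of the 18 (median −0.60) were lower in Hsf1-/- muscle, where 0.974% of all genes were called.

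In R6/2 over the 4 treatments, where 40.9% of all genes were called (2722 of 13754 lower), 7 of the 12 and 15 of the 18 were lower under TMM scaling. On library size alone, where 9504 of all genes were higher and 520 lower, 2 of 12 and 4 of 18 were lower and 6 and 4 were higher. In the control and vehicle mice alone, where 30.5% of all genes were called, 2 of the 12 were higher and 2 lower (median 0.01), and 2 of the 18 were higher and 4 lower (median −0.07), so the lower mean over the 4 treatments lay mostly in the treated mice.

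Of 30 enzymes that modify HSF1, 2 were higher and 3 lower in Hsf1-/- muscle, where 7.61% of all genes were called. Gsk3b, a kinase that phosphorylates HSF1 on an inhibitory site, was 0.40 higher (adjusted p = 0.00359), Csnk2a1, a casein kinase 2 subunit, 0.28 higher (adjusted p = 0.0165) and Map2k2, a MAP kinase kinase, was at −0.25 (adjusted p = 0.0183). In R6/2, 9 of 30 were higher and 5 lower under TMM scaling, near the 40.9% of all genes called, and 27 and 1 on library size alone, on which 10024 of 13754 genes were called, 94.8% of them higher. Prkaa2, a catalytic subunit of AMP-activated kinase, fell from 70.0 ± 12.7 CPM in wild type to 28.2 ± 11.7 CPM in R6/2 (log2 difference −1.32, adjusted p = 0.00011), while its paralogue Prkaa1 was at 55.8 ± 7.01 CPM in R6/2 and 31.9 ± 2.53 CPM in wild type (0.81, adjusted p = 2.27e-06). Hdac6, a cytoplasmic deacetylase that binds HSP90 complexes, was 0.84 higher (adjusted p = 1.92e-07). With HS in wild type, Dyrk2, a kinase, was the single enzyme of the list called (−1.22, adjusted p = 0.0379).

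Of 9 partners of HSF1 in transcription, none was called in Hsf1-/- muscle by edgeR or DESeq2, and 0 had an unadjusted p under 0.05. There, 7.61% of all genes were called, and 3146 of 13754 had an unadjusted p under 0.05. In R6/2, where 40.9% of all genes were called, 5 were higher and 2 lower under TMM scaling and 8 and 1 on library size alone, among them Daxx (0.58, adjusted p = 3.32e-06), which binds HSF1, and Ppargc1a (−1.06, adjusted p = 0.000379), the coactivator PGC-1alpha. Ppargc1a also rose with HS in wild type (2.05, adjusted p = 0.0126) and in Hsf1-/- mice (3.12, adjusted p = 0.0162). In Hsf1-/- mice the means were 35.5 ± 5.40 and 310 ± 186 CPM (SD, n = 2), and without either control mouse no gene was called in that comparison (0 genes), so this call was lost. Of 7 genes of HSF2 turnover and partnership, Cdc27, a subunit of the anaphase-promoting complex, was 0.32 higher in Hsf1-/- muscle (adjusted p = 0.0227). In R6/2, Ppp2r1a, a scaffold subunit of phosphatase 2A, was 0.35 higher (adjusted p = 9.13e-05) and Cul3, a ubiquitin ligase scaffold, was at −0.26 (adjusted p = 0.0125), but on library size alone 6 of the 7 were higher and none lower. Under TMM scaling 40.9% of all genes were called there, and on library size alone 10024 of 13754, 94.8% of them higher. Of 6 tested neighbours of Hsf1, none was called in Hsf1-/- muscle by edgeR or DESeq2 or had an unadjusted p under 0.05, and in R6/2 Cpsf1 (0.41, adjusted p = 0.000331) and Bop1 (0.26, adjusted p = 0.0176) were higher, as were 5 of the 6 on library size alone. The same shares of all genes called in R6/2, 40.9% and 10024 of 13754, apply to these neighbours.

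Over the 24 libraries, the genes with the pattern most like each member were found by Pearson's r on log2(CPM + 0.5) among 11119 genes. For Hsf1 they were Rpl30 (0.906), Ttc38 (0.871) and Rnf166 (0.85), and Rpl30 and Ttc38 lie on chromosome 15 as well, 41.9 and 9.35 Mb from Hsf1. With each genotype centred on its own mean, r fell to 0.303 for Rpl30, −0.01 for Ttc38 and 0.573 for Rnf166. For Hsf2 they were Enah (0.827), R3hcc1l (0.805) and 2310057M21Rik (0.804), with 0.807, 0.807 and 0.761 after centring. For Hsf4 they were Myl6b (0.927), Phc1 (0.917) and Hook2 (0.916), with 0.396, 0.377 and 0.395 after centring. For Hsbp1 they were Drap1 (0.919), H2-Ke6 (0.912) and Aamp (0.902), with 0.883, 0.868 and 0.847. The likeness of Hsf1 and Hsf4 to their nearest genes thus lay mostly between genotypes, and that of Hsf2 and Hsbp1 also within them. Between members, r ran from −0.01 (Hsf2 and Hsbp1) to 0.63 (Hsf4 and Hsbp1). After centring it ran from −0.369 (Hsf2 and Hsbp1) to 0.385 (Hsf1 and Hsbp1), with 0.381 for Hsf4 and Hsbp1. All these points share the 3 genotypes and the same libraries.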

How the data were processed

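Poly(A) RNA of quadriceps femoris was sequenced by the authors as strand-specific paired-end libraries and mapped to mm9 with Bowtie. The deposited table holds raw counts per gene, 1 column per mouse, with no normalization. The counting program and annotation are not given in the sources used here. Columns were matched to mice by their labels, and 18594 of 18669 Entrez identifiers were given a symbol.

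A gene was tested if 10 or more libraries held 2 or more of its counts. Counts were scaled by TMM and fitted with edgeR 4.0.16 (R 4.3.3; quasi-likelihood, 12 group means, 12 residual degrees of freedom before moderation), with Benjamini-Hochberg adjustment within each comparison. Genotype differences are unweighted means of the 4 within-treatment differences. DESeq2 1.42.0 was an alternative. Intervals are 95% intervals of the fit, and exon lengths and positions are from GENCODE for mm9.

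On simulated counts over 13754 genes for R6/2 against wild type, 56% of genes changed by 0.5 and 94% of those changed by 1.0 (log2) were called. For HS in wild type, 3% and 49% were. In each simulation 100 genes of each size were changed and all other genes were left equal between groups. In the real R6/2 comparison 5625 genes were called, so these rates need not hold for it.

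The genes followed and the gene lists were chosen with earlier results of these data known. Named genes are the 4 members, up to 3 called genes per list and comparison with the largest changes, the 3 genes most like each member, and Bop1, Dgat1, Hspa1a and Dnajb1; Hsp90ab1, Hsf3, Hsf5, Hsfy2, Sumo2 and the markers were named after their values were seen. A gene that the rule would name is not reported here. Replicates of a group differed by more than sampling noise (chi-square per degree of freedom 17.4 to 99.0).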

Additional observations from a re-analysis of the deposited data

How the results depend on the processing

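No member was called after a treatment under 9 fixed alternatives or on a total without the 20 most abundant genes, which was chosen after seeing the data. Hsf1 in Hsf1-/- and Hsf4 in R6/2 kept direction and call under these and in each experiment alone, also chosen after seeing the data. Hsbp1 in Hsf1-/- lost its call on library size only (−0.15, adjusted p = 0.0869), without a filter (−0.16, adjusted p = 0.0721), on thinned counts (−0.16, adjusted p = 0.0505) and on the total without the top genes (−0.12, adjusted p = 0.119), and reversed in the HSP990 experiment alone (0.016, adjusted p = 0.954). Its call held with DESeq2 (adjusted p = 0.00931), only the groups compared (0.0264), filterByExpr (0.035), RLE size factors (0.045) and a replicate block (0.0474). Leaving out each mouse gave −0.18 to −0.14 (adjusted p 0.0419 to 0.12), and it was called only without Hsf1-/- control replicate 1 or Hsf1-/- HSP990 replicate 2. Hsf4 in Hsf1-/- was called with filterByExpr (−0.25, adjusted p = 0.0493), with DESeq2 (−0.24, adjusted p = 0.0443) and without wild type HSP990 replicate 1 (adjusted p = 0.0443; range over mice −0.28 to −0.21). Hsf2 in Hsf1-/- was 0.0045 in the HS experiment alone. In R6/2, Hsf1 reversed on library size (0.25) and was −0.082 (adjusted p = 0.302) without the top genes, Hsf2 was called at 0.71 and 0.37 and Hsbp1 at 0.68 and 0.34 on these scales, where the median gene lay at 0.61 and 0.28. The cause was not tested. Leaving out each mouse, Hsf1 in R6/2 gave −0.36 to −0.31, called each time.

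The replicate numbers did not pair the mice (correlations of deviations −0.333 to 0.346 over 66 pairs of groups, 10 over 0.1). With a replicate block, Hsf1 was −1.23 in Hsf1-/- and −0.33 in R6/2, Hsf4 was −0.25 and 0.59, no call changed, and 933 genes were called in Hsf1-/- against 1046.

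Among uncalled treatment values, these changed sign on library size only: Hsf1 after HS in wild type (−0.038) and R6/2 (−0.059), Hsbp1 after HS in wild type (−0.11) and R6/2 (−0.052) and after HSP990 in R6/2 (−0.011), and the Hsbp1 HS response of Hsf1-/- minus wild type (0.056). Without the top genes, Hsf1 after HS was −0.031 in wild type and −0.021 in R6/2, Hsbp1 after HS was −0.10 and −0.015, the Hsbp1 HS response of Hsf1-/- minus wild type was 0.059, and the Hsf1 HS response of R6/2 minus wild type was 0.010. Leaving out a mouse turned the sign of the following. After HS, Hsf1 ran from −0.046 to 0.14 in R6/2, Hsf2 from −0.22 to 0.087 in wild type and −0.012 to 0.27 in Hsf1-/-, Hsf4 from −0.21 to 0.094 in R6/2, and Hsbp1 from −0.018 to 0.072 in wild type and −0.082 to 0.066 in Hsf1-/-. After HSP990, Hsf1 ran from −0.14 to 0.024 in R6/2, Hsf2 from −0.029 to 0.12 in wild type and −0.44 to 0.068 in R6/2, Hsf4 from −0.28 to 0.0017 in wild type, and Hsbp1 from −0.044 to 0.14 in R6/2. The HS response minus that of wild type ran from −0.14 to 0.042 (Hsf1), −0.46 to 0.049 (Hsf2) and −0.014 to 0.076 (Hsbp1) in R6/2, and from −0.036 to 0.20 (Hsf1), −0.026 to 0.21 (Hsf4) and −0.11 to 0.040 (Hsbp1) in Hsf1-/-. The HSP990 response did so from −0.49 to 0.023 (Hsf2) in R6/2, and from −0.17 to 0.23 (Hsf1) and −0.24 to 0.044 (Hsf4) in Hsf1-/-.

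Counts over all genes moved more. R6/2 had 5625 called genes (51.6% higher) against 10024 on library size (94.8% higher) and 7303 without the top genes (81.5%). Hsf1-/- had 1046 (42.5% higher) against 1596 from only the groups compared, 583 without wild type control replicate 2 and 1127 without the top genes (62.4%). For HS, the counts were 283, 6 and 1 in wild type, R6/2 and Hsf1-/-, against 542, 127 and 161 with DESeq2 and 598, 10 and 98 from only the groups compared, and in wild type 77.4% were higher, against 50.9% on library size. For HSP990 they were 255, 197 and 30, against 542, 376 and 142 with DESeq2 and 158, 8 and 0 from only the groups compared.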
